A study of Saccharomyces cerevisiae with 2 samples.

Results

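The 36 genes described here encode the machinery of RNA polymerases I and III in *Saccharomyces cerevisiae*. They were taken by ORF name from the 6207 ORFs of the deposited table, on a list drawn up by function with earlier results of these data known. The list held 7 subunits found only in polymerase I, 2 subunits that polymerases I and III share, and 10 subunits found only in polymerase III. It also held 8 initiation factors of polymerase I, 6 subunits of TFIIIC, 2 subunits of TFIIIB and the repressor MAF1.

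RNA polymerase I transcribes the tandem ribosomal DNA repeats into the large ribosomal RNA precursor. RNA polymerase III makes 5S ribosomal RNA, transfer RNAs and other small RNAs. Both enzymes are governed by growth and stress signals through TOR and protein kinase A, and Maf1 is the main repressor of polymerase III. The genes for both enzymes are classically coregulated with ribosome assembly genes in budding yeast.

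RNA levels had been compared on 2-colour DNA microarrays between caspofungin-treated and untreated cells of 1 strain. The treated cells were a wsc1 mutant in the BY4741 background exposed for 2 h to 15 ng/ml caspofungin in rich medium at 24 °C, and the untreated cells were the other part of the same divided culture. Caspofungin inhibits β-1,3-glucan synthase, and WSC1 encodes a plasma membrane sensor of cell wall stress. Both RNAs carried the wsc1 mutation, so no value here compares the mutant with a wild type, and the labels do not say how many clones were used. The treated RNA carried Cy3 in replicate 1 and Cy5 in replicate 2.

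Each value is a log2 ratio of the dyes, and the sources used here do not give which dye stands on top. The sign of replicate 1 was turned to bring the treated RNA to the same place in both ratios. A positive value means more RNA in treated than in untreated cells when Cy5 is the numerator, and less when Cy3 is. Positive and negative therefore name sides and not directions of change. The labels mention 2 cultures and 4 arrays, and do not tie either column to a culture, so the p-values reflect no more than the spread of these columns, possibly technical.

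Both replicates held a value for 3117 ORFs, and the medians over all values of a column after turning were 0.073 in replicate 1 and -0.044 in replicate 2. Across these ORFs the turned columns had a Pearson r of 0.29, given as a description because genes are not independent replicates. Of the genes that mark a haploid a cell, the mating type of BY4741, MFA1, MFA2, STE2 and BAR1 had values in both replicates. In replicates 1 and 2, MFA1 had -0.013 and -0.021, and MFA2 had -0.53 and -0.18. STE2 had 0.25 and 0.35, and BAR1 had 0.40 and 0.13. Of the α-cell genes, MF(ALPHA)1 and STE3 were blank in both, and MF(ALPHA)2 had 0.53 and 0.87 in replicates 1 and 2. A dye ratio gives no level, so these values do not measure which cells were present.

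Which parts of the machinery had a ratio at all differed by role. Of the 36 genes, 20 had a value in both replicates (55.6%), 2 had 1 value and 14 were blank in both (38.9%). Over all ORFs, 50.2% had both values and 39.5% were blank in both, close to the shares of the 36 genes. Of the 19 subunits of the enzymes, 14 had both values and 3 were blank. Of the 17 initiation factors and MAF1 together, 6 had both values and 11 were blank. The sources used here do not give the rule by which a spot was left blank, and signal over background is unknown.

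**Figure D1:**
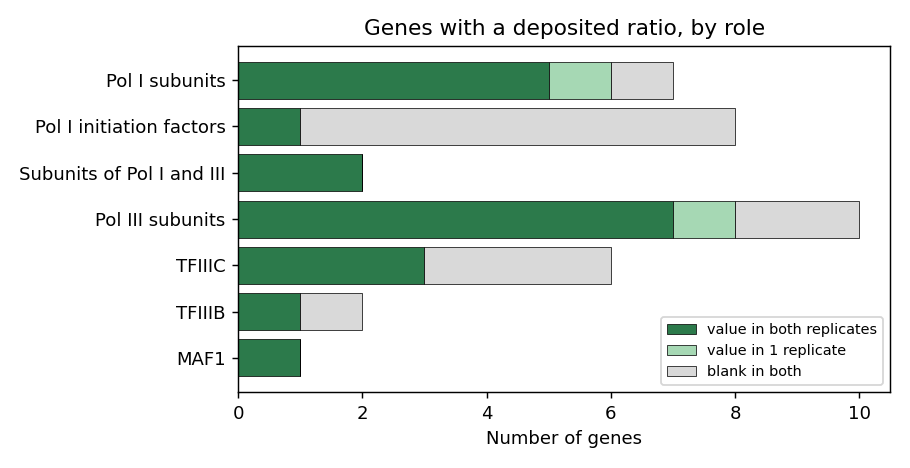
Number of genes (horizontal axis) with a deposited ratio in both replicates, in 1 replicate or in neither, for each role group. Polymerase I initiation factors have 7 of 8 genes blank, while polymerase I subunits have 1 of 7 and polymerase III subunits 2 of 10 blank.

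The largest subunits of both enzymes were among the blank genes. RPA190 (YOR341W) encodes the largest subunit of polymerase I and RPO31 (YOR116C) that of polymerase III, and neither had a value. RPC82 (YPR190C), a subunit of the initiation subcomplex of polymerase III, was blank too. Among the polymerase I factors the blanks were RRN3 (YKL125W), which brings the enzyme to the promoter, RRN6 (YBL014C) and RRN11 (YML043C) of the core factor, and RRN5 (YLR141W), RRN9 (YMR270C), RRN10 (YBL025W) and UAF30 (YOR295W) of the upstream activating factor. On the polymerase III side TFC3 (YAL001C), TFC4 (YGR047C) and TFC8 (YPL007C) of TFIIIC and BDP1 (YNL039W) of TFIIIB were blank. RPA135 (YPR010C), the second-largest subunit of polymerase I, had 0.16 in replicate 1 and a blank in replicate 2, and RPC34 (YNR003C), a polymerase III initiation subunit, had 0.29 and a blank.

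No gene of the machinery passed the test. Each ORF with both values was tested against 0 with limma (two-sided, Benjamini-Hochberg over the 3117 ORFs, threshold 0.05), and 0 of the 20 genes passed, against 0% of all ORFs. At an unadjusted p of 0.05 limma gave 1 of the 20, RPA12 on the positive side, while 13.4% of all ORFs were past it, 5.61% on the positive side. Replicates of one sign with a mean over 1.5-fold in size were found for 0 of the 20, against 4.04% of all ORFs, and over 1.2-fold for 2, RPA12 and RPC31, against 23.2%. With the columns centred, the limma test called 3.69% of all ORFs when the medians came from ORFs measured in both columns and 1.38% when they came from all values, and in each case 0 of the 20 genes. The median size of the mean ratio was 0.13 for the 20 genes and 0.15 for all ORFs.

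The genes of the machinery lay on both sides of 0. Of the 20, 11 had a positive mean and 9 a negative one, with a median of 0.026, and over all ORFs 52.1% were positive with a median of 0.010. The replicates had the same sign for 13 of the 20 genes, 6 positive and 7 negative, and for 64.1% of all ORFs, 31.6% positive and 32.4% negative. With both columns taken as deposited, 11 of the 20 means, RPA12 and MAF1 among them, lay on the other side. Values that agree after turning largely cancel in that setting, so these sides are no measure of stability. The median SD between the replicates was 0.077 for the 20 genes and 0.13 for all ORFs. The columns were not centred for these SDs. Their medians over the ORFs with both values were 0.035 and -0.042, and this offset enters every SD.

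**Figure D2:**
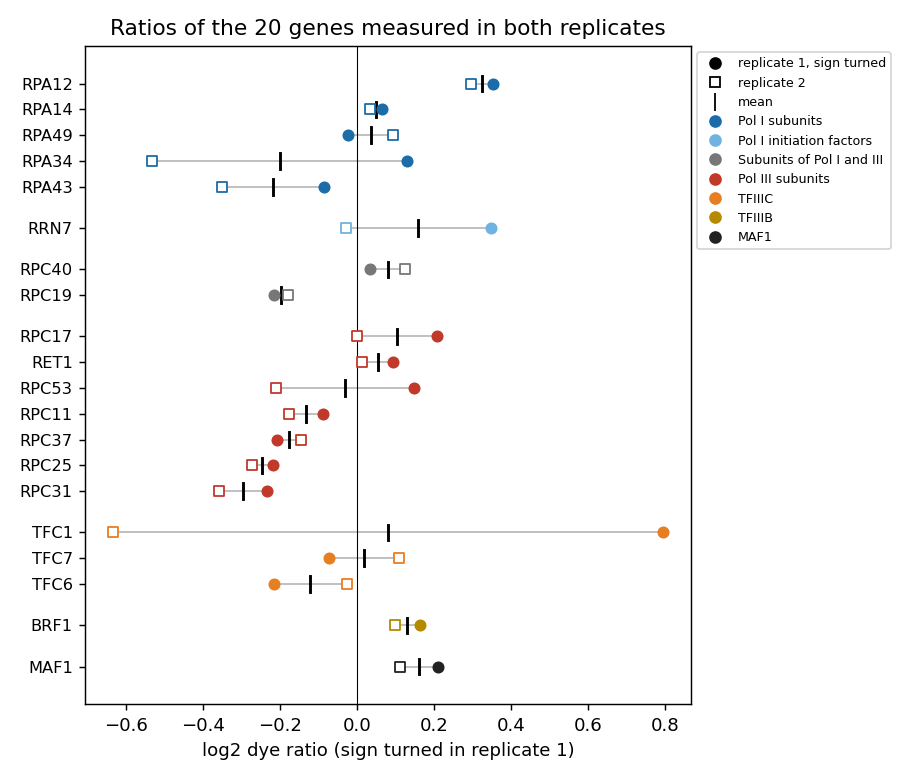
Turned log2 ratio (horizontal axis) of each gene measured in both replicates, grouped by role, with replicate 1 as filled circles, replicate 2 as open squares and the mean as a vertical bar. RPC31, RPC25, RPC37 and RPC11 lie on the negative side in both replicates, RPA12 on the positive side in both, and TFC1 has its replicates farthest apart, at 0.79 and -0.64.

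The subunits found only in polymerase I showed no common side. RPA12 (YJR063W), a small subunit that takes part in RNA cleavage and termination, had 0.35 in replicate 1 and 0.29 in replicate 2. Both lay above 0, with a mean of 0.32 ± 0.041 (SD, n = 2) and a size of 1.25-fold. The 95% interval was 0.029 to 0.62 and the limma adjusted p was 0.366. With the columns centred on the medians of all their values, the interval was -0.036 to 0.65 and took in 0. RPA12 had the greatest mean size of all 20 genes, and it was rank 533 among the 3117 ORFs by size.

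RPA43 (YOR340C) encodes the stalk subunit that contacts the initiation factor Rrn3. Its ratios were -0.086 in replicate 1 and -0.35 in replicate 2, both negative, with a mean of -0.22 ± 0.19 (SD, n = 2), a 95% interval of -0.57 to 0.14 and a limma adjusted p of 0.462. RPA43 and the blank RPA190 are neighbouring genes on the chromosome in the RefSeq gene table, and they are the only adjacent genes of the list. RPA14 (YDR156W), the partner of RPA43 in the stalk, had 0.064 and 0.033, close to 0 in both replicates. RPA43 was below RPA14 in both, by a mean of -0.27 ± 0.17 (SD, n = 2).

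RPA49 (YNL248C) and RPA34 (YJL148W) encode a dimer of polymerase I that acts in initiation and elongation. RPA49 had -0.024 in replicate 1 and 0.093 in replicate 2, with a mean of 0.034 ± 0.083 (SD, n = 2). RPA34 had 0.13 and -0.53, so its replicates lay on opposite sides, and its mean of -0.20 ± 0.47 was smaller than its SD. Without replicate 2 the value of RPA34 turned to 0.13, and that of RPA49 to -0.024. As deposited, before any turning, RPA34 was negative in both columns, at -0.13 and -0.53. RPA49 minus RPA34 was -0.15 and 0.63, of opposite sign in the replicates.

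RPC40 (YPR110C) and RPC19 (YNL113W) form a dimer that both polymerases share, a counterpart of the bacterial α subunits. Their ratios lay on opposite sides of 0. RPC19 had -0.22 and -0.18 in replicates 1 and 2, with a mean of -0.20 ± 0.025 (SD, n = 2), a 95% interval of -0.49 to 0.094 and a limma adjusted p of 0.432. RPC40 had 0.033 and 0.12, with a mean of 0.079 ± 0.064 (SD, n = 2). RPC40 was above RPC19 in both replicates, by 0.25 and 0.31 on the log2 scale.

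Of the 7 measured subunits found only in polymerase III, 5 had a negative mean, a share of 71.4%, against 47.9% of all ORFs. Of the 7, 4 were negative in both replicates and 1 was positive in both, against 32.4% and 31.6% of all ORFs. RPC34, with 0.29 in replicate 1 only, is outside these counts. The median of the group was -0.13, and -0.083 with members measured at least once. RPC31 (YNL151C), of the subcomplex that engages TFIIIB, had -0.24 in replicate 1 and -0.36 in replicate 2. Its mean was -0.30 ± 0.088 (SD, n = 2), a size of 1.23-fold, with a 95% interval of -0.60 to 0.0086 and a limma adjusted p of 0.377. Both values were negative, and the interval of the mean took in 0.

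RPC25 (YKL144C) and RPC17 (YJL011C) form the stalk of polymerase III. RPC25 had -0.22 and -0.27, with a mean of -0.25 ± 0.038 (SD, n = 2), a 95% interval of -0.54 to 0.047 and a limma adjusted p of 0.397. RPC17 had 0.21 in replicate 1 and -0.0012 in replicate 2, so only replicate 1 stood apart from 0, and its value without replicate 1 was on the negative side. RPC25 was below RPC17 in both replicates, by a mean of -0.35 ± 0.11 (SD, n = 2).

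RPC37 (YKR025W) and RPC53 (YDL150W) form a dimer used in termination and reinitiation, and RPC11 (YDR045C) is the RNA cleavage subunit that works with it. RPC37 had -0.21 and -0.15, both negative, with a mean of -0.18 ± 0.045 (SD, n = 2), a 95% interval of -0.47 to 0.12 and a limma adjusted p of 0.470. RPC53 had 0.15 and -0.21, on opposite sides, and its mean was -0.032 ± 0.25, while RPC53 minus RPC37 was 0.36 and -0.065. RPC11 was negative in both replicates, at -0.090 and -0.18, with a mean of -0.13 ± 0.061 (SD, n = 2), a 95% interval of -0.43 to 0.17 and a limma adjusted p of 0.574. RET1 (YOR207C), the second-largest subunit, had 0.093 and 0.012, with a mean of 0.053 ± 0.057 (SD, n = 2), a 95% interval of -0.24 to 0.35 and a limma adjusted p of 0.831.

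The subunits of polymerase I were set beside those of polymerase III. The median of the mean ratio was 0.034 for the 5 measured polymerase I subunits and -0.13 for the 7 measured polymerase III subunits, a difference of 0.17. The differences of medians taken within each replicate had an SD of 0.039 (n = 2), which leaves out the spread among the genes. In replicate 1 the medians were 0.064 for polymerase I and -0.090 for polymerase III, and in replicate 2 they were 0.033 and -0.18 in the same order. Polymerase I was thus the higher of the pair in both replicates, by 0.15 and 0.21. The ranges overlapped, from -0.22 to 0.32 for polymerase I and from -0.30 to 0.10 for polymerase III. No test was run on this difference, because 2 columns cannot give an exact p below 0.5 and the genes were listed with results known.

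The size of that difference moved with the summary and the genes that entered it. For the same 5 and 7 subunits it was 0.10 with the means of the groups in place of medians. With the initiation factors added on both sides it was 0.074. Over the 4 counterpart pairs that were compared and had values in both replicates, its median was 0.028. For the 5 and 7 subunits with both columns taken as deposited it was 0.014. Values that agree after turning largely cancel in that setting, so the 0.014 is no measure of stability.

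**Figure D3:**
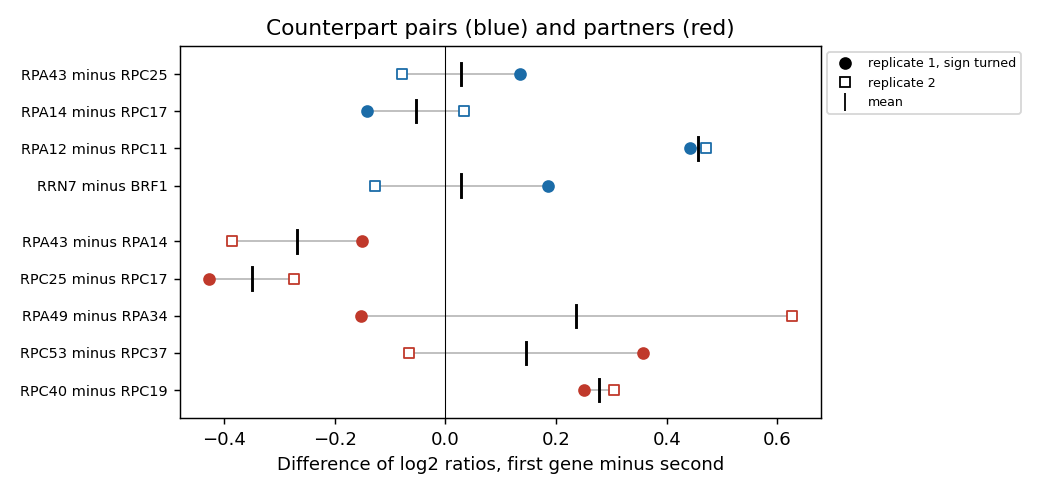
Difference of turned log2 ratios (horizontal axis), first gene minus second, for counterparts in polymerases I and III (blue) and for partners within a complex (red), with replicate 1 as filled circles, replicate 2 as open squares and the mean as a vertical bar. Among the counterpart pairs shown, only RPA12 minus RPC11 has the same sign in both replicates.

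Counterpart subunits, which hold corresponding places in the enzymes, were compared pair by pair, for a chosen list of pairs. RPA49, RPA34, RPC37 and RPC53 were not paired across the enzymes. RPA12 exceeded RPC11 by 0.44 in replicate 1 and by 0.47 in replicate 2, a mean of 0.46 ± 0.020 (SD, n = 2). RPA43 minus RPC25 was 0.13 and -0.078, and RPA14 minus RPC17 was -0.14 and 0.034, so both stalk pairs changed sign between the replicates. RRN7 (YJL025W) and BRF1, which both resemble the polymerase II factor TFIIB, differed by 0.19 and -0.13. RPA135 minus RET1 was 0.065 in the replicate that measured both, and the pair of largest subunits had no values. None of these differences was tested, since 2 columns allow no exact p below 0.5.

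The general factors gave few values. RRN7, of the core factor of polymerase I, had 0.35 in replicate 1 and -0.030 in replicate 2, with a mean of 0.16 ± 0.27 (SD, n = 2), and it was on the negative side without replicate 1. BRF1 (YGR246C), the TFIIB-related subunit of TFIIIB, was positive in both replicates at 0.16 and 0.098, with a mean of 0.13 ± 0.045 (SD, n = 2). TFIIIC binds the internal promoters of transfer RNA genes, and 3 of its 6 subunits had values. TFC6 (YDR362C) had -0.22 and -0.027, and TFC7 (YOR110W) had -0.073 and 0.11, so only TFC6 kept its side. The median of the 3 mean ratios was 0.017, and the medians within replicates 1 and 2 were -0.073 and -0.027, both on the other side of 0.

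TFC1 (YBR123C), a TFIIIC subunit that contacts the internal promoter, differed most between the replicates. After turning it had 0.79 in replicate 1, against -0.64 in replicate 2, with a mean of 0.080 ± 1.01 (SD, n = 2) and a limma adjusted p of 0.938. As deposited both columns were negative, -0.79 and -0.64, so the same dye had the lower signal in both if both columns are the same dye ratio. Fitted as deposited, TFC1 had a limma p of 0.0085 before adjustment and 0.999 after, and 3.02% of all ORFs then had an unadjusted p under 0.05. By the size of the average of the deposited columns, -0.71, TFC1 was rank 48 of 3117 ORFs, and by the size of the turned mean it was rank 2254. Whether a dye effect of this spot made the values was not tested. Across the 20 genes the turned columns had a Pearson r of -0.076, and across the 19 without TFC1 it was 0.45, both as descriptions; TFC1 was left out after its values were seen.

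**Figure D4:**
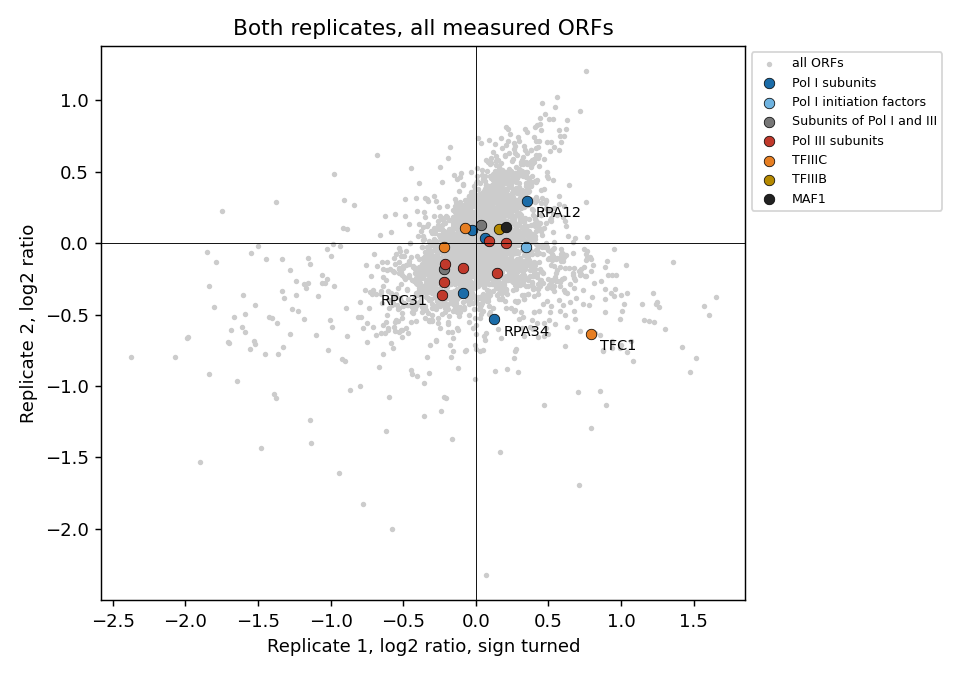
Turned log2 ratio in replicate 1 (horizontal axis) and log2 ratio in replicate 2 (vertical axis) for the 3117 ORFs with both values (grey) and the 20 genes of the machinery (coloured by role). The genes of the machinery lie among the grey points, RPA12 in the upper right, RPC31 in the lower left and TFC1 at 0.79 and -0.64 in the lower right.

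MAF1 (YDR005C), the repressor that holds polymerase III inactive under stress, is controlled mainly by phosphorylation of its protein, which an RNA ratio does not measure. Its RNA ratios were 0.21 in replicate 1 and 0.11 in replicate 2. Both were positive, with a mean of 0.16 ± 0.071 (SD, n = 2), a 95% interval of -0.14 to 0.46 and a limma adjusted p of 0.515. With both columns taken as deposited its mean was -0.050, in a setting where values that agree after turning largely cancel.

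Genes outside the list that act with these enzymes were read in the same way. Of the 5 small subunits common to polymerases I, II and III, 4 had both values, with 3 negative, 1 positive and 0 past the adjusted test. Over all ORFs 47.9% were negative and 0% passed. An unadjusted limma p under 0.05 was found for 2 of the 4, RPB8 and RPB5, against 13.4% of all ORFs. RPB8 had 0.28 and 0.44, a mean of 0.36 ± 0.12 (SD, n = 2, limma adjusted p = 0.366). RPB5 had -0.28 and -0.37, a mean of -0.33 ± 0.064 (SD, n = 2, limma adjusted p = 0.366). Both replicates of RPB8 were positive and both of RPB5 negative. RPO26 had -0.22 and -0.17, a mean of -0.20 ± 0.035 (SD, n = 2). RPC10 had -0.00029 and -0.25, so only replicate 2 stood apart from 0, and RPB10 had -0.34 in replicate 1 and a blank in replicate 2.

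Of 9 further factors of these transcription systems, 5 had both values, 2 positive and 3 negative. The adjusted test was passed by 0, and an unadjusted limma p under 0.05 was found for 0. SPT15, the TATA-binding protein used by all these polymerases, had -0.20 and -0.096. LHP1, the La protein that binds new polymerase III transcripts, had -0.075 and -0.25, and REB1, which binds the ribosomal DNA terminator region, had -0.12 and -0.052. NET1, a nucleolar protein that stimulates polymerase I, had 0.63 and -0.35, and TOP1, topoisomerase I, had 0.60 and -0.13. SPT15, LHP1 and REB1 were negative in both replicates, while NET1 and TOP1 were negative in both columns as deposited and changed side on turning. PZF1, HMO1, SUB1 and FOB1 were blank in both.

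Of 5 kinases upstream of these polymerases, 1 had both values. TOR1 had 0.77 and -0.10, with a mean of 0.33 ± 0.62 (SD, n = 2, limma adjusted p = 0.561), so its replicates lay on opposite sides. SCH9, a TOR effector that phosphorylates Maf1, had 0.29 in replicate 1 and a blank in replicate 2. MCK1, which acts on the RPC53 protein together with KNS1, had 0.22 in replicate 1 and a blank in replicate 2, and KNS1 and TOR2 were blank in both.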

How the data were processed

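The authors deposited 1 value per ORF and replicate, which was taken as a log2 ratio because 2 raised to each value had at most 4 decimals. The sources used here do not give background correction, normalization, centring or the direction of the ratio. The 2 control entries were left out. Gene symbols and neighbouring genes came from the RefSeq gene table (assembly R64), which matched all 36 members and 5654 of 6207 ORFs.

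From these values, the sign of replicate 1 was turned by the dyes in the labels, and each of 3117 ORFs with both values was tested against 0 in limma 3.58.1 (R 4.3.3; an intercept fitted with lmFit, then eBayes, two-sided, Benjamini-Hochberg over all ORFs). The test was also run on simulated data that held no column offset and no dye effect, so that run does not bear on the effect of centring. Role groups are described by counts and medians, with no test. The members and lists were chosen with earlier results of these data known. The mean, SD, 95% interval and adjusted p were given for the 8 members of greatest mean size among those with the same sign in both replicates, for MAF1 and for the 2 largest subunits of each enzyme where measured; every other member is named. The number of arrays limits the precision. Alternatives covered the prior, centring, scaling, the turning, the filter on blanks, the thresholds and leaving out each replicate.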

Additional observations from a re-analysis of the deposited data

How the results depend on the processing

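For the 20 genes of the machinery, 0 passed the adjusted limma test under each alternative run. In the reported fit 1 gene, RPA12, passed at an unadjusted p, and that pass did not hold in every setting. Its unadjusted limma p was 0.039 as reported, 0.049 with columns centred on the ORFs measured in both, and 0.075 when centred on all values. It was 0.057 with the plain one-sample statistic and 0.90 in limma as deposited, where TFC1 had 0.0085. Over all ORFs the count of 0 became 115 with each column centred on the median of the ORFs measured in both, 103 when also scaled, 43 when centred on the median of all values of the column (added after seeing the data), and 417 at an unadjusted p. Degrees of freedom of the limma prior were 2.64 in the reported fit, against 17.1, 15.4 and 10.6 in these centred or scaled fits, in the same order; its part in the counts was not tested. Both forms of centring and the scaling left the side of all 20 genes as it was. The robust prior, the plain statistic and the filter of 1 column do not alter the mean of these genes, so no side could change under them. With both columns as deposited, 11 of the 20 changed side: RPA14 (-0.016), RPA12 (-0.029), RPC19 (0.018), RET1 (-0.040), RPC37 (0.032), RPC17 (-0.10), TFC1 (-0.71), TFC6 (0.095), BRF1 (-0.032), RRN7 (-0.19) and MAF1 (-0.050). Medians under this setting were -0.036 for all members, -0.029 for polymerase I subunits, 0.032 for the shared pair, -0.043 for polymerase III subunits, 0.090 for TFIIIC, -0.032 for TFIIIB, -0.19 for polymerase I factors and -0.050 for MAF1. The replicates then had the same sign for 7 genes in place of 13, a count fixed by turning 1 column back. Values that agree after turning largely cancel in this setting, so its sides, medians and differences are no measure of stability. Polymerase I minus polymerase III, 0.17 as reported, was 0.15 to 0.21 when a replicate was left out, 0.014 as deposited, 0.10 with means, 0.12 with members measured at least once, 0.074 with factors and 0.028 over counterpart pairs. The polymerase I median was -0.0030 as a mean and 0.033 to 0.064 with a replicate left out, and the TFIIIC median, 0.017 as reported, was -0.073 to -0.027 with a replicate left out. The 7 genes with replicates of opposite sign necessarily changed side when 1 of the replicates was left out. They were RPA49 (-0.024 to 0.093), RPA34 (-0.53 to 0.13), RPC53 (-0.21 to 0.15), RPC17 (-0.0012 to 0.21), TFC1 (-0.64 to 0.79), TFC7 (-0.073 to 0.11) and RRN7 (-0.030 to 0.35). The count beyond 1.5-fold, 0 as reported, was 1 with either replicate alone, 1 as deposited and 2 at 1.2-fold. Each ratio was formed from both RNAs of a replicate, so the test against 0 already used that pairing. With 1 group of ratios no further pairing was possible.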
